A study of Mus musculus with 8 samples.

Results

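The Wnt ligands, their receptors and their antagonists were measured at lactation day 1 in the No. 4 mammary glands of mice with Th-POK (WT) and of mice without it (KO). Members were taken by symbol: every gene named Wnt, Fzd, Sfrp, Dkk, Rspo or Axin followed by a digit, with Lrp5, Lrp6, Lgr4 and Lgr5 added. Of the 18749 genes that a probe of the array could be matched to, 46 were members. They were 19 Wnt ligands, 10 Frizzled receptors, 1 co-receptor (Lrp6), 6 R-spondins and Lgr receptors, 8 secreted antagonists and 2 Axin scaffolds. Lrp5, which the rule names, had no matched probe and was not analysed here. A gene was tested where its probe was well above background, by the scanner software's own mark, on all 4 arrays of at least 1 genotype. By that rule 33 members were tested and 13 were not.

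The WT group was 4 dams of the C57/Bl6 strain and the KO group 4 dams of the same strain that lack Th-POK, a transcription factor encoded by Zbtb7b and best known for directing T cell precursors to the CD4 fate. All 8 animals were female and age-matched, their age is not given in the sources used here, and every gland was taken at lactation day 1. The KO mice are described as knockout mice with no promoter or Cre that would limit the deletion to a cell type. Total RNA of the whole gland was labelled with Cy3 and hybridized to a one-colour Agilent array, 1 dam per array, so the brightness of a probe is the measurement. In a whole gland, fewer cells of a type and less RNA per cell cannot be told apart.

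Wnt proteins are secreted, lipid-modified ligands. They bind a Frizzled receptor together with the co-receptors Lrp5 or Lrp6, and in the canonical branch this stops a cytoplasmic complex built on Axin from degrading beta-catenin, which then activates TCF/LEF factors at target genes. R-spondins bind Lgr receptors and keep Frizzled proteins on the cell surface, while secreted Frizzled-related proteins (Sfrp) and Dickkopf proteins (Dkk) hold the ligands or the co-receptors back. In the mammary gland the pathway is known for ductal side branching under progesterone, for upkeep of basal progenitor cells, and for tumours that arise when Wnt1 is switched on by a virus.

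The 5 tested members whose WT and KO arrays did not overlap were Wnt9a, Axin2, Fzd1, Fzd7 and Lrp6, and the reference sequence just before the start of a gene was to hand for the first 4 of them. These 250 bases before the RefSeq start (GRCm38.p6, written 5′ to 3′ on the strand of the gene) are shown because they are the regions from which those members are transcribed. Capitals mark the matches of a search on both strands for the 7-letter core to which TCF/LEF factors are known to bind (CTTTG, then an A or a T at each of the next 2 places), and for the letters TATAA of a TATA box.
Wnt9a, chr11:59306680-59306929, plus strand: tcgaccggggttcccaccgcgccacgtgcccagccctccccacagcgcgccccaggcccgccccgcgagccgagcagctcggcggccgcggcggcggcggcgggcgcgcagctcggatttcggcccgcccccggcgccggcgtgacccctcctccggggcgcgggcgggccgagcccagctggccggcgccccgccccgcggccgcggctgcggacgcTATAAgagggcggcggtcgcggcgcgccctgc
Axin2, chr11:108920099-108920348, plus strand: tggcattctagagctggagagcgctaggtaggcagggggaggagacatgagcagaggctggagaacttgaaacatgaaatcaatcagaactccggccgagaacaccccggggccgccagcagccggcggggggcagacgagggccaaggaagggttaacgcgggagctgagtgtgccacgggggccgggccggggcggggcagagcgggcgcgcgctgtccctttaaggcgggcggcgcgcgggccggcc
Fzd1, chr5:4758217-4758466, minus strand: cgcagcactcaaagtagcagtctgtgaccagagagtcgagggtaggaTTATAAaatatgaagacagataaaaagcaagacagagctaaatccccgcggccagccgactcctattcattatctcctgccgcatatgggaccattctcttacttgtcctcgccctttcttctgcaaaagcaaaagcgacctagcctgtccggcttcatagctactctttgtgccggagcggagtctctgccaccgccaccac
Fzd7, chr1:59481897-59482146, plus strand: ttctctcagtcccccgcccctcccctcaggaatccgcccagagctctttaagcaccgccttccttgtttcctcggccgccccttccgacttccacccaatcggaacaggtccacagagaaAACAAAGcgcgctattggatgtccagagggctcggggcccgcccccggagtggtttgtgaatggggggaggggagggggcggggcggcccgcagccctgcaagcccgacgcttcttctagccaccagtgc

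The window of Fzd7 held 1 TCF/LEF core, AACAAAG, whose first base lay 130 bases before the start and which reads CTTTGTT on the other strand. The windows of Wnt9a, Axin2 and Fzd1 held 0. Such a core stood in 14.8% of the 32851 windows of all genes and in 4 of 32 windows of members (12.5%). The letters TATAA stood 32 bases before the start of Wnt9a, and in Fzd1 they overlapped their reverse complement TTATA at 202 and 203 bases before the start. They were found in 22.8% of all windows. The Wnt9a window was also rich in G and C, at 84.4% of its bases, against a median of 52.4% over all windows and 69.2%, 65.2% and 51.2% in Axin2, Fzd7 and Fzd1. A match describes these letters only.

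The arrays bore out the genotypes. The log2 signals of Zbtb7b were 9.90, 10.42, 10.13 and 10.23 in WT replicates 1 to 4, and its probe was not well above background on any KO array, a drop of at least 81.5-fold (adjusted p = 5.71e-09). Zbtb7b entered the test through its WT arrays alone, so the p-value adds no separate support for the drop. Between 67.1% and 75.6% of spots were well above background on the 8 arrays, and 0 were saturated. The slides each held the 4 arrays of a single genotype and were scanned apart, so genotype, slide and scan cannot be told apart. In all, 14137 genes were tested in limma with Benjamini-Hochberg adjustment over all of them, and a gene is called here on an adjusted p under 0.05. Signals are log2 values after quantile normalization between the arrays, and each difference is KO minus WT with its standard error (SE). With 4 arrays to a genotype, their number limits the precision. The luminal keratins Krt8 and Krt18 and the basal keratins Krt5 and Krt14 were well above background on all 8 arrays, whereas Pgr, the progesterone receptor, was not well above background on all arrays of either genotype.

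The ligand that stood out was Wnt9a, which rose 4.68-fold in the KO glands. The feedback gene Axin2 and the receptor Fzd1 rose as well, by smaller steps, and no member was called lower. The 3 calls were 9.09% of the 33 tested members, where 16.5% of all genes tested were called, 7.53% higher and 8.96% lower. At an unadjusted p under 0.05, 10 members were higher (30.3%, against 16.7% of all genes) and 4 lower (12.1%, against 19.6%). These 14 were 42.4% of the members, where 36.3% of all genes passed that limit, and 0 members were lower by the methods' t-test after Benjamini-Hochberg adjustment. The family as a whole was therefore not called more often than other genes. The KO mean was the higher in 22 tested members and the lower in 11, and the median difference was 0.19 against -0.02 over all genes. The WT and KO arrays did not overlap in 5 members (15.2%), all of them higher in the KO glands, where 24.1% of all genes did not overlap, 11.1% of them higher and 12.9% lower.

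**Figure D1:**
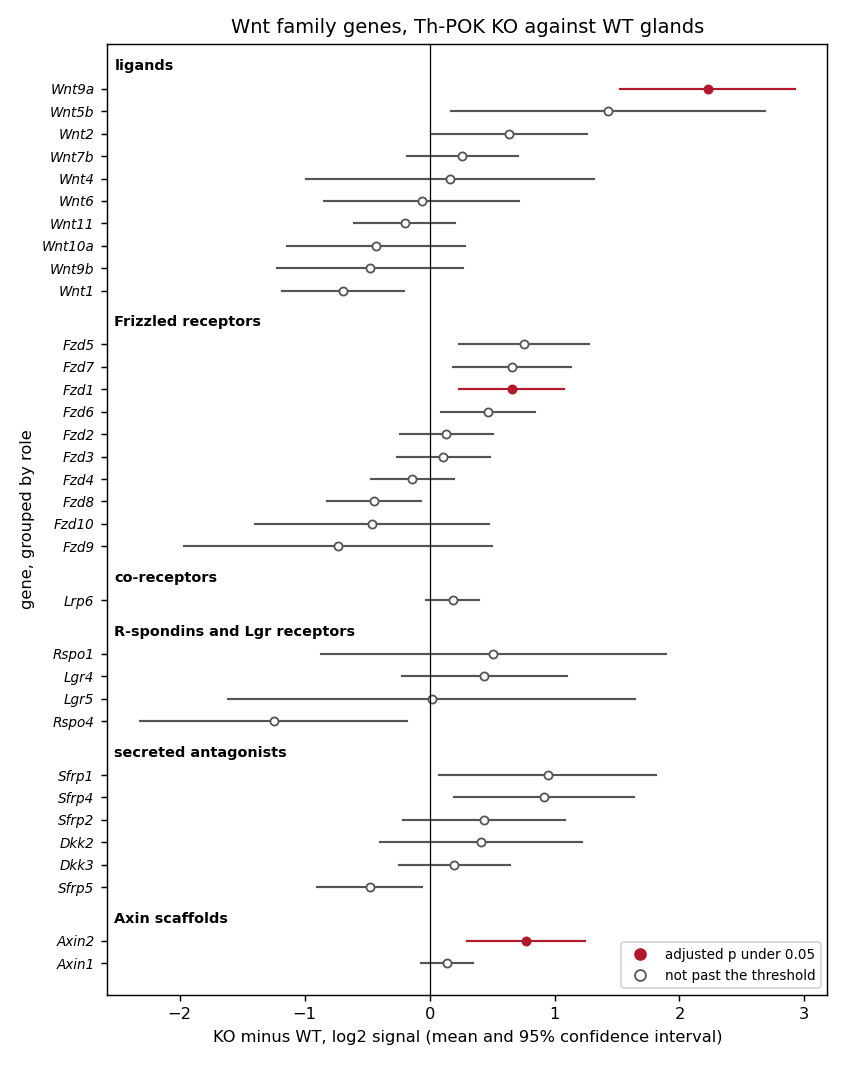
Difference between the 4 KO and the 4 WT glands (log2 signal, KO minus WT, x axis) for the 33 tested members, grouped by role; points are means and bars 95% confidence intervals from limma. Only Wnt9a at 2.23, Axin2 at 0.77 and Fzd1 at 0.66 are filled, the 3 members with an adjusted p under 0.05.

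Of the 19 ligands, 10 were tested. Wnt9a, a ligand with known roles in joint formation and in blood stem cells, had log2 signals of 7.16, 5.62, 6.76 and 6.70 in WT replicates 1 to 4 and of 9.13, 8.59, 8.81 and 8.61 in the KO replicates. Every KO array lay at least 1.42 above every WT array, and the spread within a genotype was largest in the WT glands, where replicate 2 was lowest. The difference was 2.23 (SE 0.31, adjusted p = 0.0075), and within the replicate numbers the KO array was higher by 1.97, 2.96, 2.05 and 1.91. The call was lost under 1 of 18 alternatives, with the place of the array on its slide as a block (adjusted p = 0.057). The value rests on 1 probe, since the other probe for Wnt9a was not well above background on any array.

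Wnt1, the ligand behind virus-induced mammary tumours, ran the other way. Its log2 signals were 5.34, 6.23, 5.51 and 5.97 in the WT replicates and 4.92, 4.96, 4.97 and 5.41 in the KO replicates. The KO array was the lower in every replicate number, although KO replicate 4 reached above WT replicate 1. The difference of -0.70 (SE 0.21) missed the threshold (adjusted p = 0.057) and passed it once the replicate number was a block in the fit (adjusted p = 0.042), or without WT replicate 1 or KO replicate 4 (0.029 and 0.045). Wnt5b, which is known to act mostly outside the beta-catenin branch, had signals of 10.76, 8.55, 10.72 and 9.50 in the WT and 11.89, 10.21, 11.68 and 11.48 in the KO glands. Its difference of 1.43 (SE 0.55) was the largest in the family after Wnt9a, but with WT arrays 2.21 apart it did not pass (adjusted p = 0.10). The KO array was higher by 1.13, 1.65, 0.96 and 1.97 within the replicate numbers, and with these as a block it did pass (adjusted p = 0.014). A second probe of Wnt5b differed by 1.56.

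Wnt2, a ligand made by the mammary stroma, had WT signals of 8.12, 7.52, 7.77 and 7.07 and KO signals of 8.71, 7.73, 8.50 and 8.10. Its difference of 0.64 had an adjusted p of 0.13, or 0.041 with the replicate block. Wnt4, which progesterone induces in luminal cells to drive side branching, gave 7.98, 6.15, 7.20 and 5.62 in the WT and 7.43, 6.47, 7.31 and 6.39 in the KO glands. The 4 WT glands differed from each other by up to 2.36 and their range took in all 4 KO values, so that the difference of 0.16 (SE 0.50, 95% interval -0.99 to 1.31) was far inside the spread. The remaining tested ligands were Wnt7b at 0.26, Wnt6 at -0.06, Wnt11 at -0.20, Wnt10a at -0.43 and Wnt9b at -0.48, with adjusted p from 0.32 to 0.91. A single array decided 2 of these values, since Wnt9b stood at -0.84 without KO replicate 1 (adjusted p = 0.024) and Wnt7b at 0.47 without WT replicate 3 (adjusted p = 0.044). Of the same ligands Wnt10a, a ligand of the embryonic mammary line, was the lower in the KO gland in all 4 replicate numbers, and Wnt9b was well above background on 4 WT and 2 KO arrays. Wnt9b entered the test through its WT arrays alone, so its p-values add no separate support for a fall. Wnt2b, Wnt3, Wnt3a, Wnt5a, Wnt7a, Wnt8a, Wnt8b, Wnt10b and Wnt16 were not tested, because their probes were not well above background on all arrays of either genotype. Wnt5a came nearest, with 2 WT arrays and 1 KO array.

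All 10 Frizzled receptors were tested, 6 with a higher and 4 with a lower KO mean. Fzd1 had log2 signals of 9.84, 8.99, 9.50 and 9.60 in the WT and 10.32, 9.98, 10.25 and 10.002 in the KO replicates. The groups did not overlap, with a gap of 0.14 between the highest WT and the lowest KO array, and Fzd1 was 1.58-fold higher in the KO glands (difference 0.66, SE 0.19, adjusted p = 0.045). Fzd7, the Frizzled receptor of mammary basal progenitors, was close to it in size and pattern. Its signals were 9.26, 8.40, 9.03 and 9.09 in the WT and 9.77, 9.36, 9.88 and 9.40 in the KO glands, again without overlap. The difference of 0.66 (SE 0.21) did not pass (adjusted p = 0.060). It passed with the replicate block (adjusted p = 0.033) or without WT replicate 1 (0.043). On another probe of the gene the difference was 0.67. In a limma fit over all probes, the adjusted p was 0.036 for that probe and 0.062 for the brighter one. Fzd1 and Fzd7 belong to the same branch of the receptor family, as does Fzd2, whose WT and KO arrays overlapped (difference 0.13, adjusted p = 0.59).

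Fzd5, a receptor known from the gut and the eye, had WT signals of 6.63, 6.21, 6.86 and 7.28 and KO signals of 7.38, 7.81, 7.57 and 7.26. Only WT replicate 4 overlapped the KO arrays, and the difference was 0.75 (SE 0.23, adjusted p = 0.054). Without that array it was 0.93 (adjusted p = 0.030), and on another probe of Fzd5 it was 0.31. Fzd6, which takes part in planar polarity of skin and hair, was 0.47 higher (adjusted p = 0.083) and exceeded the WT array in 3 of 4 replicate numbers; without WT replicate 1 it was 0.59 higher (adjusted p = 0.033). Fzd2, Fzd3 and Fzd4 differed by 0.13, 0.11 and -0.14, with every array of these receptors within 0.63 of the others of its genotype. Fzd8, Fzd9 and Fzd10 had the lower KO means, by -0.44, -0.74 and -0.46. Fzd8 gave 6.36, 6.74, 6.42 and 6.81 in the WT and 5.84, 6.17, 6.07 and 6.47 in the KO glands (adjusted p = 0.092), and it was lower in all 4 replicate numbers, by -0.52, -0.57, -0.35 and -0.33 (adjusted p = 0.037 with the replicate block and 0.049 without KO replicate 4). Fzd9, well above background on 4 WT and 3 KO arrays, was lower in all 4 too, while its arrays spread over 1.99 in the WT group (adjusted p = 0.36, or 0.042 with the block). Fzd9 entered the test through its WT arrays alone, so these p-values add no separate support for a fall. Its difference ranged from -0.30 without KO replicate 4 to -1.18 without WT replicate 4.

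**Figure D2:**
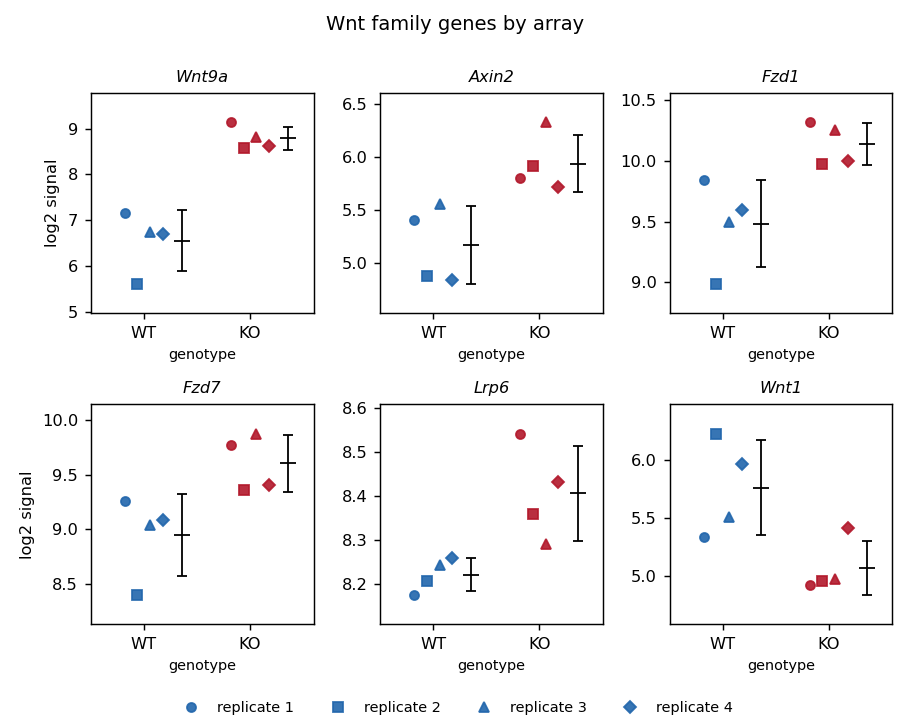
Log2 signal (y axis) of 6 members on the 4 WT arrays in blue and the 4 KO arrays in red, with the replicate number as the symbol; the black bar is the mean with 1 SD. Wnt9a, Axin2, Fzd1, Fzd7 and Lrp6 do not overlap, and KO replicate 4 of Wnt1, at 5.41, lies above WT replicate 1, at 5.34.

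Lrp6, the co-receptor that the ligands bring together with a Frizzled, varied least within the WT glands, at 8.17, 8.21, 8.24 and 8.26. Its KO values were 8.54, 8.36, 8.29 and 8.43, all above the WT values, yet the lowest of them by only 0.03. The difference was 0.19 (SE 0.09, adjusted p = 0.18). Of the R-spondins and their receptors, Rspo1, Rspo4, Lgr4 and Lgr5 were tested, whereas Rspo2 and Rspo3 were not well above background on any array. Rspo1, a luminal product that feeds basal progenitors, ranged from 8.63 to 10.80 in the WT and from 8.95 to 10.95 in the KO glands, a difference of 0.51 (SE 0.60, adjusted p = 0.57). Rspo4, known for its part in nail growth, had WT signals of 4.38, 5.32, 4.10 and 4.83 and KO signals of 2.32, 3.37, 3.28 and 4.67. It was well above background on 4 WT arrays and on 1 KO array, replicate 4, which alone lay among the WT values, and the difference of -1.25 (SE 0.47) had an adjusted p of 0.096, or 0.027 without that array. Rspo4 entered the test through its WT arrays alone, so these p-values add no separate support for a fall. Its other probe was not well above background on any array. With normexp background correction the difference shrank to -0.17.

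Lgr4, the more broadly expressed R-spondin receptor, gave 12.17, 11.10, 11.09 and 10.93 in the WT and 12.26, 11.56, 11.52 and 11.70 in the KO glands. The KO arrays were the higher in each replicate number, by 0.09 to 0.78, but WT replicate 1 was exceeded by KO replicate 1 alone, and the difference was 0.44 (SE 0.29, adjusted p = 0.31). Without WT replicate 1 it was 0.72 (adjusted p = 0.036). These values are those of its brightest probe. On its other 2 probes the difference was 0.25 and 0.11, with the KO array the lower in replicate number 3 on both and in number 2 on the second, and the mean of the 3 probes differed by 0.27. Lgr5, the stem cell marker of the gut, spread more than any other tested member in the KO glands, where its signals were 8.05, 6.03, 7.52 and 4.90, against 7.03, 5.29, 7.30 and 6.81 in the WT. The means differed by 0.02 (SE 0.71), with a 95% interval from -1.61 to 1.65 that leaves wide differences of either sign inside it.

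Among the secreted antagonists 6 of 8 were tested, 5 with a higher KO mean and 0 called. Sfrp4, a Frizzled-related protein of the stroma, gave 8.22, 8.81, 8.27 and 7.99 in the WT and 10.10, 9.33, 8.86 and 8.66 in the KO glands. It was higher in every replicate number, most in number 1 (1.88), and the difference was 0.91 (SE 0.32, adjusted p = 0.077). Sfrp1, whose loss in mice is known to bring on early mammary branching, gave 8.59, 8.69, 8.63 and 8.02 in the WT and 10.46, 8.99, 9.70 and 8.57 in the KO glands. The difference was 0.95 (SE 0.38, adjusted p = 0.11), and the KO values were spread over 1.89 against 0.66 in the WT. Without KO replicate 4, the lowest of them, it was 1.23 (adjusted p = 0.047). Sfrp2 was 0.44 higher (adjusted p = 0.30), with KO replicate 1 at 12.05 and KO replicates 2 to 4 between 10.67 and 11.40. KO replicate 1 was thus the highest array for Sfrp1, Sfrp2 and Sfrp4 alike. It was also the highest array for the mean log2 signal of 10 fibroblast marker genes. That mean was 13.24, against 12.77 to 12.98 on the other KO arrays and 12.53 to 12.78 on the WT arrays. Of these markers, Pdgfra and Pdgfrb were highest on other KO arrays. The part of fibroblasts in the Sfrp values was not tested. Sfrp5 ran the other way, with 4.67, 5.28, 4.71 and 5.08 in the WT and 4.67, 4.21, 4.24 and 4.70 in the KO glands (difference -0.48, SE 0.18, adjusted p = 0.10, or -0.07 with normexp background correction), and it was well above background on 3 of the 4 KO arrays. It entered the test through its WT arrays alone, so its p-value adds no separate support for a fall. Dkk2 and Dkk3 differed by 0.41 and 0.20 (adjusted p = 0.43 and 0.49). Dkk1 and Dkk4 were not tested.

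Axin2, a negative regulator that beta-catenin itself induces and that is widely read as a gauge of canonical signalling, gave log2 signals of 5.41, 4.88, 5.56 and 4.84 in the WT and 5.80, 5.91, 6.33 and 5.72 in the KO glands. Every KO array lay above every WT array, the nearest by 0.16. Axin2 was 1.70-fold higher in the KO glands (difference 0.77, SE 0.21, adjusted p = 0.040). Axin1, the constitutive scaffold of the same complex, hardly varied, between 7.59 and 7.81 in the WT and between 7.77 and 7.92 in the KO glands, and differed by 0.14 (SE 0.09, adjusted p = 0.31). Whether Axin2 and Axin1 differ in their response was not tested. The calls of Axin2 and Fzd1 lay close to the threshold: Axin2 was called under 9 of 18 alternatives and Fzd1 under 8, while their direction held under all 18. Both were lost when WT replicate 2, WT replicate 4 or any of KO replicates 1 to 3 was left out, and Fzd1 also without WT replicate 3 or KO replicate 4, with adjusted p between 0.056 and 0.11.

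Several members differed more among the dams of a genotype than between the genotypes. The standard deviation of a member within a genotype had a median of 0.37 in the WT and 0.27 in the KO glands, and Rspo1, Wnt4, Wnt5b and Lgr5 were among those far above it. Rspo1 gave 10.80, 8.87, 10.24 and 8.63 in the WT and 10.95, 8.95, 10.91 and 9.77 in the KO replicates, so that replicates 1 and 3 were the high ones in both genotypes. Wnt4 and Wnt5b had the same order. The pattern was noticed after the values were seen and was given no test. Replicates 1 and 3 both exceeded replicates 2 and 4 in each genotype in 10 of the 33 members (30.3%), namely Dkk3, Fzd2, Lgr5, Rspo1, Wnt2, Wnt4, Wnt5b, Wnt9a, Wnt9b and Wnt11, against 11.3% of all genes tested, and they lay below in Fzd8 and Rspo4 (6.06%, against 10.7%). These members share the same 8 arrays and are not independent of each other. What the dams of a replicate number had in common is not given in the sources used here. Within the replicate numbers, the KO array was the higher in all 4 for 12 members (36.4%, against 22.1% of all genes) and the lower in all 4 for 5 (15.2%, against 25.6%).

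**Figure D3:**
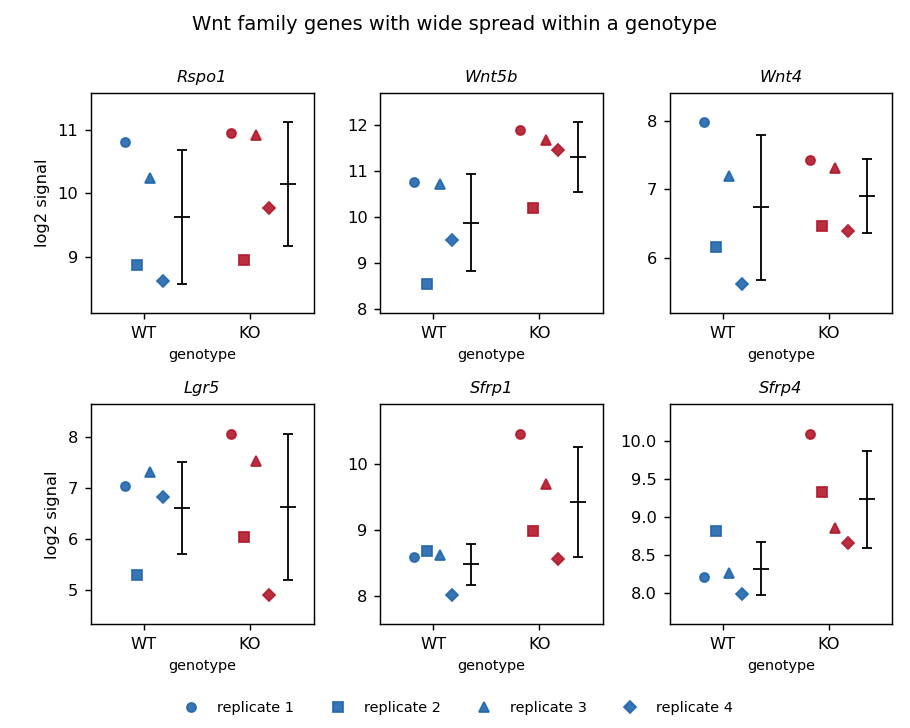
Log2 signal (y axis) of 6 members with a wide spread, on the 4 WT arrays in blue and the 4 KO arrays in red, with the replicate number as the symbol; the black bar is the mean with 1 SD. Replicates 1 and 3 of Rspo1, Wnt4 and Wnt5b lie above replicates 2 and 4 in both genotypes, and KO replicate 1 is the highest array for Sfrp1, at 10.46, and Sfrp4, at 10.10.

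A list of 68 further pathway genes, from the machinery that secretes the ligands to known target genes, placed these values in the rest of the pathway. Of the 62 that were tested, 4 were called higher and 1 lower (8.06%, against 16.5% of all genes), and 11 did not overlap (17.7%, against 24.1%). The KO mean was the higher in 42 and the lower in 20, with a median difference of 0.18. Of the 5 calls, 2 were kinases that act next to Axin. Csnk1e, casein kinase 1 epsilon, which phosphorylates Dishevelled and Lrp6 in response to a ligand, gave 12.71, 12.21, 12.31 and 12.73 in the WT and 13.56, 13.74, 13.55 and 13.35 in the KO glands. It was 2.09-fold higher (difference 1.06, SE 0.15, adjusted p = 0.0087), and it was called under all 18 alternatives. Its relative Csnk1d was 0.44 higher (adjusted p = 0.031), a call that 11 of the 18 alternatives ended, among them the replicate block (adjusted p = 0.053) and leaving out any array but WT replicate 1 (0.050 to 0.091). Its other 3 probes were also higher, by 0.18 to 0.25.

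At the membrane, Tspan12, a tetraspanin that helps Fzd4 signal in retinal vessels, was 0.61 higher in the KO glands (adjusted p = 0.017), with signals of 9.89 to 10.32 in the WT and 10.64 to 10.80 in the KO glands. Fzd4 itself differed by -0.14. Of the target genes, Sox9, a factor of luminal progenitors, gave 11.56, 10.94, 11.20 and 10.94 in the WT and 12.02, 12.08, 12.34 and 11.74 in the KO glands. It was 1.85-fold higher (difference 0.89, adjusted p = 0.020), and its other 2 probes were higher as well, by 1.18 and 0.56. Tnfrsf19, also called Troy, a membrane protein of the tumour necrosis factor receptor family, fell by 1.74 on the log2 scale (adjusted p = 0.022). Its signals were 6.23, 7.90, 7.10 and 7.86 in the WT and 5.57, 5.37, 5.99 and 5.19 in the KO glands. Sox9 and Tnfrsf19, both listed as targets of the pathway, thus moved in opposite directions, and Myc, another listed target, differed by 0.30 (adjusted p = 0.14). Ccn5, a matricellular target, had the largest difference of the list at 2.15, but KO replicate 4 at 7.60 lay among WT values of 6.73 to 8.02 while the other KO arrays stood between 9.91 and 10.74 (adjusted p = 0.060, 0.021 with the replicate block, or 0.0084 without KO replicate 4). The call of Tspan12 was lost without KO replicate 3 (adjusted p = 0.056), that of Sox9 without WT replicate 2, KO replicate 1 or KO replicate 3 (0.052 to 0.058), and that of Tnfrsf19 without WT replicate 2, KO replicate 1 or KO replicate 2 (0.056 to 0.058).

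**Figure D4:**
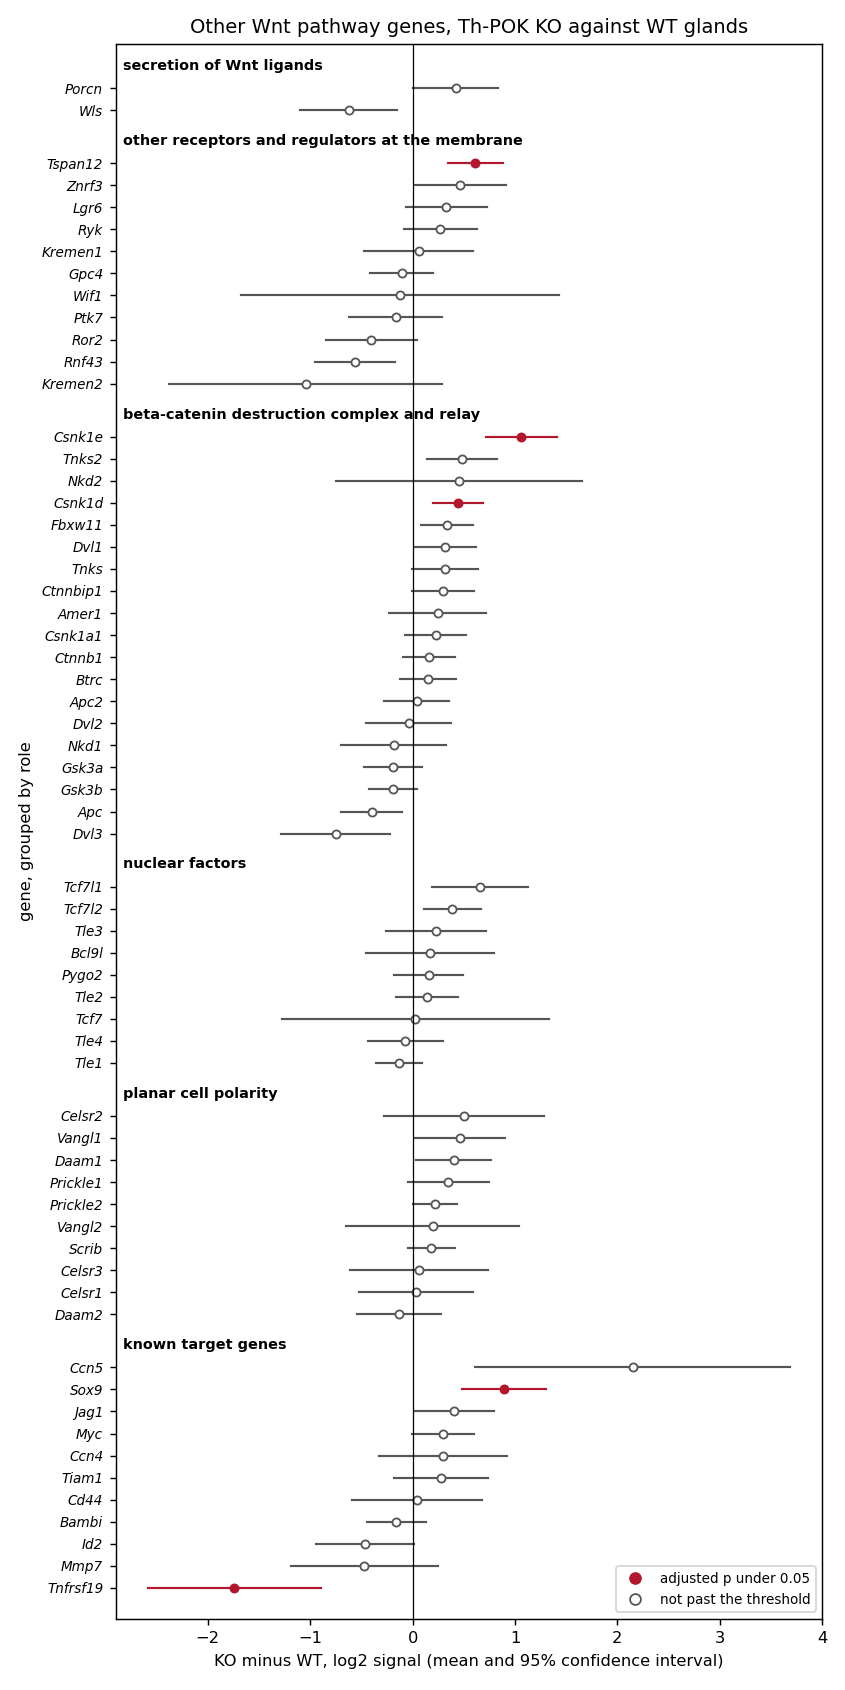
Difference between the 4 KO and the 4 WT glands (log2 signal, KO minus WT, x axis) for the 62 tested genes of the wider pathway list, grouped by role; points are means and bars 95% confidence intervals from limma. Csnk1e at 1.06, Sox9 at 0.89, Tspan12 at 0.61 and Csnk1d at 0.44 are filled to the right of 0 and Tnfrsf19 at -1.74 to the left.

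Further genes of the list were near the threshold. Wls, the carrier that brings Wnt ligands to the cell surface, gave 11.56, 12.06, 11.35 and 12.18 in the WT and 11.06, 11.07, 11.02 and 11.50 in the KO glands (difference -0.62, adjusted p = 0.069, or 0.034 with the replicate block). Porcn, which attaches the lipid to the ligands, was 0.42 higher (adjusted p = 0.13). Of the ligases that remove Frizzled proteins from the surface and that R-spondins hold off, Rnf43 differed by -0.56 (adjusted p = 0.055, or 0.027 with the block, 0.040 without WT replicate 1 and 0.023 without KO replicate 4) and Znrf3 by 0.47 (adjusted p = 0.12). Among the nuclear factors, each taken by its brightest probe, the smallest p was that of Tcf7l1, a mostly repressive TCF, at 0.66 (adjusted p = 0.059, 0.028 with the block, or 0.023 without WT replicate 1). With the block, Dvl3, a Dishevelled relay protein, was also called lower at -0.75 (adjusted p = 0.032), and Tnks2, a tankyrase that marks Axin for degradation, and Vangl1 of the polarity branch were called higher at 0.48 and 0.46 (adjusted p = 0.033 and 0.043). Beta-catenin itself (Ctnnb1) differed by 0.17 (adjusted p = 0.31). In the polarity branch Daam1, a formin, had the smallest p without the block, at 0.40 (adjusted p = 0.11).

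The probes of Tcf7, the TCF of T cells, disagreed. Its brighter probe differed by 0.03, whereas its other probe was well above background on 4 WT arrays and on 0 KO arrays. That probe fell at least 2.003-fold without Th-POK, with an adjusted p of 0.020 in a limma fit over all probes. It entered that fit through its WT arrays alone, so the p-value adds no separate support for the fall. Of all genes tested 7.53% were called higher and 8.96% lower. Of 9 tested T cell markers 2 were called lower, Cd3e and Cd4. Cd4 was dim, with means of 4.77 in the WT and 4.34 in the KO glands. Il7r differed by 0.66 (adjusted p = 0.21), while the others not called had lower KO means. The signal, summed over the list on the linear scale of the normalized values, was 676 to 1761 in the WT and 788 to 983 in the KO glands. The part of T cells in the Tcf7 values was not tested. Markers of other cell types are set beside the same shares, and 1 call in a list of 10 is near them. Luminal markers were called higher in 4 of 9 (Krt18, Epcam, Cdh1 and Foxa1), with a summed signal of 193924 to 241402 in the WT and 235196 to 285659 in the KO glands. Most of that sum was Krt8, Krt18 and Elf5. Of the luminal markers not called, Krt8 and Gata3 differed by 0.46 and 0.49, and Elf5, Prlr and Esr1 by -0.35, -0.20 and -0.13. Fibroblast markers were called higher in 1 of 10 (Dcn), with sums of 183383 to 235076 and 227089 to 335589. For adipocyte markers the count was 2 of 10 (Plin1 and Cfd), with sums of 299763 to 415504 and 420654 to 586477. Cfd and Fabp4, the brightest of the list, made up most of these sums. Lep and Pparg differed by -0.73 and -0.05, while all others of the list had higher KO means. Neutrophil markers were called higher in 3 of 8 (Ngp, Camp and Ltf), with sums of 103845 to 147280 and 234956 to 336183. Most of that sum was Ltf, at 65673 to 96898 and 161491 to 251737, and Ltf and Lcn2, the brightest of the list, are also made by mammary epithelium. The other 6 summed to 1639 to 7574 and 7727 to 18773, and of these Csf3r and Mpo differed least (adjusted p = 0.86 and 0.52). Ngp and Camp were well above background on 0 WT arrays and entered the test through their KO arrays alone. Their calls therefore add no separate support for the rise, which was at least 7.11-fold for Ngp and 8.54-fold for Camp. B cell markers were called higher in 1 of 4 (Cd79b). Basal markers were called lower in 1 of 10 (Krt17), with sums of 137790 to 206160 and 126565 to 181897, and of 10 endothelial and 9 macrophage markers 0 were called. The part of these cell types in the values of Wnt9a, Axin2, Fzd1 and the other members was not tested.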

How the data were processed

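RNA of 8 mammary glands (4 WT, 4 Th-POK KO) was measured on one-colour Agilent arrays. The authors deposited scanner intensities per array, already background-subtracted by Agilent Feature Extraction 10.7 but on no common scale. Their own quantile-normalized log2 values, deposited by the authors as well, served as an alternative only. They followed the scanner values of the same arrays, with a median of 6.33 per column.

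Here the processed intensities of all spots but controls were log2-transformed and quantile-normalized (limma 3.58.1, R 4.3.3). Between 64 and 100 outlier spots per array were dropped, and spots were averaged to 41174 probes. The accessions of 27479 probes matched 18749 symbols, among them 26728 of 27094 NM accessions. A probe entered where at least 0.5 of its spots were well above background on every array of a genotype (27735 probes), and 67 matched probes lacked a value on an array. The brightest probe stood for a gene. Genes were compared by limma with eBayes, two-sided, with Benjamini-Hochberg adjustment over 14137 genes, a fit that was tested on simulated data. Where no array of a genotype measured a gene above background, the fold is a lower limit: each dim array was set to the dimmest measured probe or to the gene's own signal, whichever was brighter.

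The members, the pathway list and the marker lists were chosen with earlier results of these data known. Named are members and pathway genes that were called, members without overlap, the 2 members and the 1 pathway gene of each role with the smallest p, and Zbtb7b. Every other gene in the text was picked with its values in view.

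Labels number the replicates 1 to 4 in either genotype, and sets of replicates are mentioned in the methods. Deviations from the genotype means correlated at 0.22, 0.16, 0.30 and 0.28 between arrays of the same number. Arrays of different numbers ranged from -0.32 to 0.34, the highest of all being WT replicate 1 with KO replicate 3. The numbers were taken to pair the samples, though these correlations do not single out the same-number pairs. The main test used no pairing, and the numbers entered a fit only as a block in an alternative. Alternatives covered scaling, background correction, the filter, the choice of probe, unmatched probes, marked spots, the authors' table, the methods' t-test, the replicate number or slide position as a block, and leaving out each array. The p-values measure the spread between dams. Promoter windows and gene names came from RefSeq tables of GRCm38.p6.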

Additional observations from a re-analysis of the deposited data

Results flagged for a closer look

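Each group of 4 arrays was examined for the 33 members and for other named genes, 94 groups in all, for an array that stood apart from the other 3 by Dixon's test. Such arrays were found in 5 groups, where chance alone marks about 1 group in 20. Lgr4, an R-spondin receptor, was at 12.17 in WT replicate 1 against 10.93 to 11.10 in the other WT glands, and without that array Lgr4 was called higher in the KO glands. Leaving out that array also raised the calls over all genes from 2331 to 3076. Sfrp1, a secreted antagonist, was at 8.02 in WT replicate 4 against 8.59 to 8.69. The receptor Fzd6 was at 8.97 in KO replicate 1 against 9.19 to 9.21, and the ligand Wnt1 at 5.41 in KO replicate 4 against 4.92 to 4.97. Wls, the carrier of the ligands, was at 11.50 in the same array against 11.02 to 11.07 in the other KO glands.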

How the results depend on the processing

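Wnt9a kept its call under 17 of 18 alternatives and Csnk1e under all 18. Members called higher (3 in the main test) and lower (0) numbered 1 and 0 with no filter on dim probes, 5 and 0 with the mean of a gene's probes (Axin2, Fzd1, Fzd5, Fzd7 and Wnt9a), 1 and 0 with the methods' t-test, 4 and 1 with scaling to the 75th percentile, 3 and 1 with marked spots kept, and 0 and 0 with slide position as a block, where 137 of all genes were called. Wnt1 was the 1 lower member. With the replicate number as a block they numbered 6 (Axin2, Fzd1, Fzd7, Wnt2, Wnt5b and Wnt9a) and 3 (Fzd8, Fzd9 and Wnt1) while 2762 of all genes were called, and in the pathway list 7 were called higher and 4 lower; the block changed no other call than those given. Pathway genes called higher (4) and lower (1) numbered 1 and 0 with slide position as a block, 4 and 0 with the t-test, and 5 and 3 with normexp background correction. Leaving out 1 array gave 1 to 6 members called higher (6 without WT replicate 1, 1 without WT replicate 2 or KO replicates 1, 2 or 3) and 0 to 3 lower (3 without KO replicate 4), 1 to 8 pathway genes called higher (8 without WT replicate 1, 1 without KO replicate 3) and 0 to 3 lower (3 without WT replicate 1 or KO replicate 4). Over all genes it gave 519 calls (without KO replicate 3) to 3076 calls (without WT replicate 1) against 2331. A call gained without WT replicate 1 is therefore not particular to the gene. Differences near 0 changed sign. Dkk2 went to -0.0066 with normexp. Leaving out 1 array gave -0.46 to 0.59 for Lgr5 (below 0 without WT replicate 2, KO replicate 1 or KO replicate 3), -0.21 to 0.58 for Wnt4 (below 0 without WT replicate 2, WT replicate 4 or KO replicate 1) and -0.25 to 0.29 for Wnt6 (above 0 without WT replicate 1 or KO replicate 1). The normexp correction was run on median signals, a choice made after seeing the data. An offset of 50 was added to each signal, which by its arithmetic shortens the log2 differences of dim genes. The correction brought dim genes nearer to 0, among them Rspo4 (-1.25 to -0.17), Sfrp5 (-0.48 to -0.07), Axin2 (to 0.35) and Wnt1 (to -0.29). The share of the offset in these shifts, and the causes of the other shifts, were not tested. A slide as a block could not be fitted, since each slide held 1 genotype. Signal over background limits the dim members most, and the 13 untested ones have no value here.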
